A study of Mus musculus with 34 samples.

Results

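The genes described here are 9 imprinted genes that control growth and differentiation: Dlk1, Meg3, Rian, Peg3, Ndn, Plagl1, Mest, Cdkn1c and Grb10. They were chosen by symbol and are 9 of the 51826 genes with a count in the tables. All 9 were among the 25705 genes that passed a filter on low counts and were tested. Their levels were followed in fibroblasts of 9 mouse tissues and in mesothelial cells of 3 fat depots.

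An imprinted gene is transcribed from the copy inherited from a single parent, and DNA methylation at a control region differs between the parental copies. In mouse, Dlk1, Peg3, Ndn, Plagl1 and Mest are transcribed from the paternal copy, Meg3, Rian and Cdkn1c from the maternal copy, and Grb10 from the maternal copy in most tissues. As a class these genes set the pace of growth in the embryo and are mostly turned down after birth, and in connective tissue several of them, among them Dlk1 and Ndn, are known as brakes on the formation of fat cells. The counts add both parental copies of a gene, so the data give its level and not its imprint.

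The study sequenced polyadenylated RNA of stromal cells sorted from mouse tissues into TRIZOL after digestion. The sort kept PDPN-positive (podoplanin) cells that lacked CD45, CD31 and Epcam, and all libraries carry the label GFPneg, which the labels do not explain. Mesothelial cells, the sheet that lines the body cavities and covers visceral fat, were PDGFRA-negative and came from omentum, mesentery and epididymal fat with 3 libraries each. Fibroblasts were PDGFRA-positive and came with 3 libraries each from the same 3 depots, from inguinal fat, from brown fat, from bone and from lymph node (sLN in the labels), and from pancreas and spleen with 2 libraries each. By their labels the subcutaneous depots are inguinal and brown fat, and the other 3 fat depots are visceral. Strain, age and sex are not given in the sources used here. Whether replicate libraries are from different animals is not labelled, so p-values measure the spread between these libraries, which may be technical. In sorted bulk samples, fewer cells that use a gene and less RNA per cell cannot be told apart.

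The 34 libraries held 28.7 M to 42.3 M counted reads. Levels are given as CPM, the counts of a gene per M counts of its library after TMM scaling of the totals. Sums over cell type markers, and the Ins2 values, are instead CPM on library totals without that scaling. Summed over 6 mesothelial markers, the level was 6740 to 10716 CPM in mesothelial libraries and 0.407 to 476 CPM in fibroblast libraries. The sort marker Pdgfra had 4.43 to 13.5 CPM in mesothelial libraries and 367 to 1424 CPM in fibroblast libraries. Summed over 5 fibroblast markers (Pdgfra, Lum, Dcn, Col1a1 and Col3a1), the ranges overlapped, with 20895 to 27850 CPM in mesothelial and 17409 to 84563 CPM in fibroblast libraries. Markers of other cells were present: 6 pancreatic acinar genes summed to at least 1000 CPM in 7 libraries, up to 60949 CPM in a pancreas fibroblast library, and 4 bone cell genes summed to 13997 to 20038 CPM in bone fibroblasts. Their part in the results was not tested, but comparisons were repeated with those 7 libraries left out, except that of pancreas, which has no other library. The omission leaves omentum fibroblasts with replicate 2 alone, so fewer libraries and less acinar RNA cannot be told apart there.

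Compared per kilobase of annotated exon, the 9 genes stood at different levels. Ndn was the highest in every group except bone fibroblasts, where Mest was, with a group mean of 94.8 CPM per kilobase in brown fat fibroblasts and 16.3 in epididymal mesothelial cells. Grb10 ran from 11.7 CPM per kilobase in epididymal mesothelial cells to 38.2 in mesentery fibroblasts. Mest covered the widest span as a ratio of group means, with 0.746 CPM per kilobase in mesentery mesothelial cells and 54.5 in pancreas fibroblasts. Dlk1 was low in most groups, at 0.0402 CPM per kilobase in epididymal fibroblasts and 2.68 in spleen fibroblasts. The plot of the 9 genes by library shows all values.

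**Figure D1:**
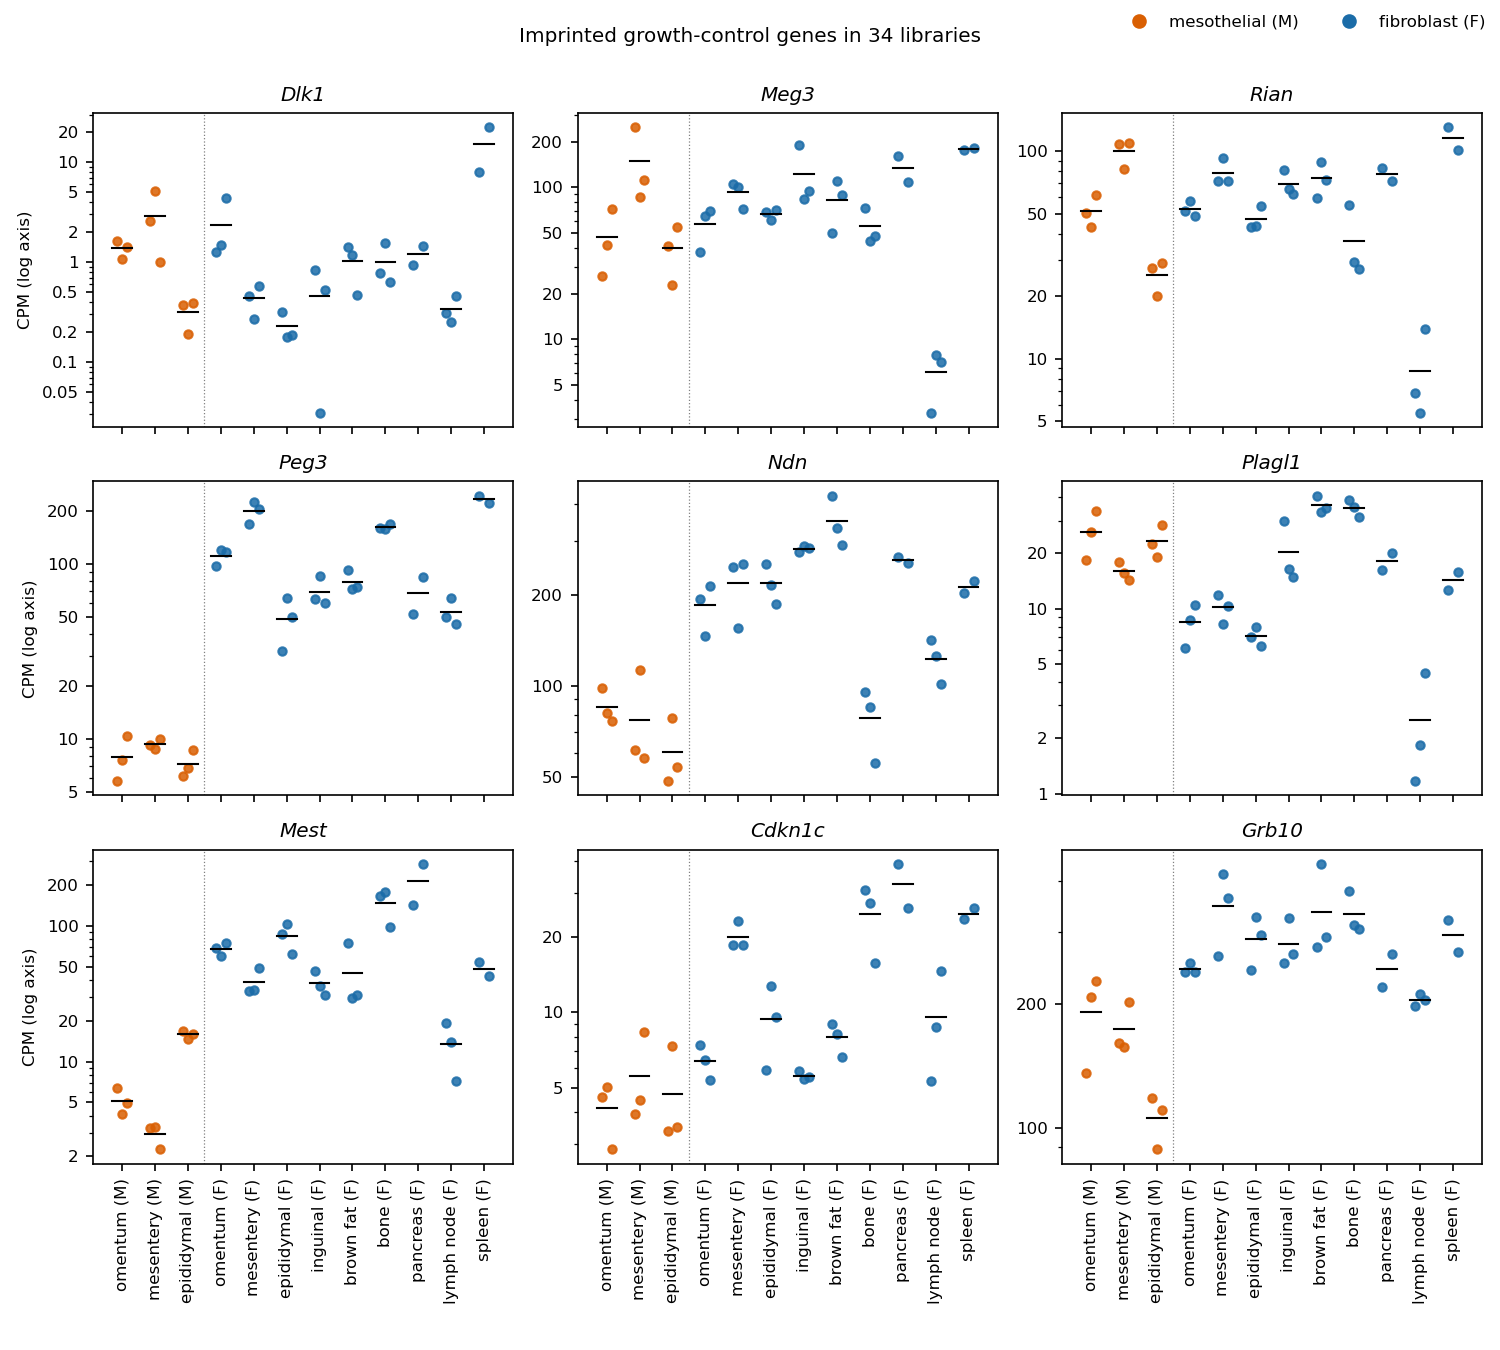
CPM (log axis) of the 9 imprinted genes in each of 34 libraries, with mesothelial groups (M, orange) left of fibroblast groups (F, blue); points are libraries and bars are group means. All 9 mesothelial libraries lie below all 25 fibroblast libraries for Peg3, and lymph node fibroblasts lie below every other group for Meg3, Rian and Plagl1.

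The first comparison set mesothelial cells against fibroblasts of the same depot, in omentum, mesentery and epididymal fat. Peg3, Mest, Ndn and Cdkn1c were lower in mesothelial cells and Plagl1 was higher, averaged over the 3 depots. A call took an adjusted p under 0.05 in edgeR's quasi-likelihood test (Benjamini-Hochberg, all genes tested) together with a log2 fold change of 1 or more in either direction. By that rule 4 of the 9 genes were lower and 1 was higher, where 21.4% of all 25705 genes were called, 12.3% as higher and 9.08% as lower. The median log2 fold change of the 9 genes was -0.93, and that of all genes tested was 0.11. Within depots, omentum had 3 of the 9 genes lower and 1 higher, where 16.9% of all genes were called (8.10% higher, 8.79% lower). Mesentery had 4 lower and 1 higher, against 18.3% of all genes (10.8% higher, 7.53% lower). Epididymal fat had 5 lower and 1 higher, against 24.7% (16.6% higher, 8.16% lower).

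Peg3 encodes a large zinc finger protein that marks stem and progenitor cells in several adult tissues. It lies on the minus strand at chr7:6703892-6730431 (GENCODE M21 on GRCm38), with 10 exon blocks. In omentum it had 5.78, 7.63 and 10.4 CPM in mesothelial cells, against 97.4, 120.2 and 117 CPM in fibroblasts. Mesentery gave 9.29, 8.79 and 9.98 CPM in mesothelial cells, against 168, 226 and 205 CPM in fibroblasts. In epididymal fat the values were 6.18, 6.90 and 8.65 CPM in mesothelial cells, against 32.0, 64.2 and 49.98 CPM in fibroblasts. Mesothelial cells thus held a narrow band of Peg3 in all 3 depots, and the fibroblasts of the 3 depots differed. The log2 fold change was -3.81 ± 0.25 in omentum (SE, adjusted p = 9.38e-14), -4.42 ± 0.25 in mesentery (adjusted p = 2.56e-15) and -2.75 ± 0.24 in epididymal fat (adjusted p = 3.37e-11). The 3 differences themselves differed, spanning 1.67 on the log2 scale (interaction test, adjusted p = 0.00142), and 4 of the 9 genes were called in this test against 10.9% of all genes. Between mesothelial cells of the 3 depots Peg3 spanned 0.37 on the log2 scale (adjusted p = 0.448).

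Mest encodes an enzyme of the alpha/beta hydrolase fold and is known for its rise in expanding fat. It lies at chr6:30723547-30748465 on the plus strand. Omentum gave 6.34, 4.11 and 4.95 CPM in mesothelial cells, against 68.6, 60.3 and 75.5 CPM in fibroblasts. Mesentery gave 3.26, 3.32 and 2.25 CPM in mesothelial cells, against 33.0, 33.7 and 48.9 CPM in fibroblasts. Epididymal fat gave 16.9, 14.7 and 16.1 CPM in mesothelial cells, against 88.1, 104 and 62.2 CPM in fibroblasts. No mesothelial library overlapped the fibroblasts of its depot. The log2 fold change was -3.74 ± 0.37 in omentum (adjusted p = 2.35e-09), -3.70 ± 0.38 in mesentery (adjusted p = 2.38e-09) and -2.42 ± 0.34 in epididymal fat (adjusted p = 1.17e-06). Mest also differed between mesothelial cells of the 3 depots, with epididymal highest and mesentery lowest, a span of 2.43 (adjusted p = 1.80e-05). Of its 3945 exon bases 912 overlap Copg2 on the opposite strand, and no source used here says whether counting used strand. Copg2 itself had group means of 28.2 to 46.4 CPM and was not called between mesothelial cells and fibroblasts.

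Ndn (necdin) is a MAGE family protein that restrains cell growth and the differentiation of preadipocytes. It is a single exon gene at chr7:62346569-62350262 on the plus strand. Mesothelial cells had 98.3, 81.2 and 76.4 CPM in omentum, against 193, 146 and 214 CPM in fibroblasts. In mesentery the values were 61.1, 113 and 57.8 CPM in mesothelial cells, against 247, 155 and 253 CPM in fibroblasts. In epididymal fat they were 48.3, 78.3 and 53.7 CPM in mesothelial cells, against 253, 216 and 186 CPM in fibroblasts. The groups did not overlap in any depot, and the log2 fold change was -1.11 ± 0.24 in omentum (adjusted p = 5.95e-04), -1.50 ± 0.24 in mesentery (adjusted p = 7.86e-06) and -1.86 ± 0.24 in epididymal fat (adjusted p = 2.07e-07). The omentum call was lost without omentum fibroblast replicate 3 (-0.99, adjusted p = 0.00611). It was also lost without the 7 libraries rich in acinar RNA (-0.89), which leaves omentum fibroblast replicate 2 alone.

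Cdkn1c encodes a cyclin-dependent kinase inhibitor that stops the cell cycle. It lies at chr7:143458339-143461050 on the minus strand, and 625 of its 2039 exon bases overlap the antisense gene Gm44732, which had 10 reads in all libraries together. In mesentery it had 3.92, 4.49 and 8.38 CPM in mesothelial cells, against 18.5, 23.1 and 18.6 CPM in fibroblasts, a log2 fold change of -1.85 ± 0.34 (adjusted p = 7.24e-05). In epididymal fat, 3.36, 7.38 and 3.49 CPM in mesothelial cells overlapped 5.91, 12.8 and 9.55 CPM in fibroblasts, and the call at -1.005 ± 0.35 (adjusted p = 0.0258) was lost without epididymal fibroblast replicate 2 (-0.72) or 3 (adjusted p = 0.0550), without epididymal mesothelial replicate 1 (-0.98) or 3 (-0.82), and with unscaled library totals (-0.84). In omentum the difference was -0.63 ± 0.35 (adjusted p = 0.198). The 3 differences did not pass the interaction test (span 1.21, adjusted p = 0.178).

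Plagl1 (Zac1) encodes a zinc finger transcription factor that slows the cell cycle and is itself described as a regulator of other imprinted genes. It lies at chr10:13060504-13131694 on the plus strand. In omentum it had 18.3, 26.2 and 33.9 CPM in mesothelial cells, against 6.13, 8.73 and 10.5 CPM in fibroblasts, a log2 fold change of 1.63 ± 0.30 (adjusted p = 7.81e-05). In epididymal fat it had 22.3, 18.999 and 28.4 CPM in mesothelial cells, against 7.01, 7.96 and 6.31 CPM in fibroblasts, a log2 fold change of 1.71 ± 0.30 (adjusted p = 3.30e-05). In mesentery the groups also did not overlap, with 17.9, 15.5 and 14.4 CPM in mesothelial cells and 11.9, 8.32 and 10.4 CPM in fibroblasts, but the difference of 0.64 ± 0.29 did not pass (adjusted p = 0.124).

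CpG sites were counted in the 250 bases before a RefSeq transcription start (GRCm38.p6), since the imprint is carried by CpG methylation at control regions. RefSeq and GENCODE starts differ, and the windows of Ndn, Mest, Plagl1 and Grb10 lie inside the GENCODE gene. The Mest window is shown, as Mest was called in all 3 depots and no GENCODE exon lies in its window, 5′ to 3′ on the gene's strand, with CpG dinucleotides, the sites that DNA methylation uses, in capitals. Mest has 3 starts in the RefSeq table, and the window with the most CpG sites was taken. The same choice was made for every gene of the table.
Mest, chr6:30737800-30738049, plus strand: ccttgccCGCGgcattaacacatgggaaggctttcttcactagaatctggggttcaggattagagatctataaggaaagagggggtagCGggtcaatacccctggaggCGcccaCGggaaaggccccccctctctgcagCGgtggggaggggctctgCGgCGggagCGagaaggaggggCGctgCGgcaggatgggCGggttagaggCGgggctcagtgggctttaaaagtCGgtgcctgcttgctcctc
Among genes called in the mean of the 3 depots that have a RefSeq entry, Plagl1 held 19 CpG sites in its window, Mest 14, Peg3 8 and Ndn 5. The median was 6 over all genes of the table, each with its window of most CpG sites. Entries were found for 8 of the 9 genes. Of these Grb10 had the most CpG sites, 40, and Rian had 0, so the windows of these genes share no common CpG content. The letters GGGGCCCC, a GC-rich core described for the Plagl1 protein that reads the same on both strands, occurred in the Peg3 window and in 0.914% of these windows over all genes. Methylation was not measured here.

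Dlk1 encodes a membrane protein with EGF repeats that blocks preadipocyte differentiation, and lies at chr12:109452823-109463336 on the plus strand. In mesentery it had 2.59, 5.16 and 1.001 CPM in mesothelial cells, against 0.459, 0.267 and 0.577 CPM in fibroblasts, a log2 fold change of 2.73 ± 0.62 (adjusted p = 8.74e-04). Omentum ran the other way, with 1.62, 1.07 and 1.42 CPM in mesothelial cells overlapping 1.27, 1.49 and 4.36 CPM in fibroblasts (-0.78 ± 0.53, adjusted p = 0.302). In epididymal fat both cell types were low, at 0.370, 0.190 and 0.388 CPM in mesothelial cells and 0.319, 0.178 and 0.185 CPM in fibroblasts. The 3 differences spanned 3.51 (interaction test, adjusted p = 0.0123), a call lost without omentum fibroblast replicate 3 (2.75, adjusted p = 0.0576). Without the libraries rich in acinar RNA, which leaves omentum fibroblast replicate 2 alone, the call was also lost (3.10). All of these are low levels: the omentum mesothelial libraries had 46, 39 and 54 Dlk1 reads.

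Meg3 and Rian are long non-coding RNAs transcribed from the other parental copy of the Dlk1 domain, Meg3 at chr12:109541001-109571726 and Rian at chr12:109603940-109661716, both on the plus strand. Neither was called between mesothelial cells and fibroblasts in any depot. Meg3 gave -0.30 ± 0.41 in omentum, 0.68 ± 0.41 in mesentery and -0.76 ± 0.42 in epididymal fat, and Rian gave -0.03 ± 0.25, 0.34 ± 0.25 and -0.89 ± 0.26. The last value had an adjusted p of 0.00767 and stayed short of the fold threshold. The Rian differences passed the interaction test by a narrow margin (span 1.23, adjusted p = 0.0459), and the call was lost in 23 of 42 alternatives, 21 of them with a single library left out (spans of 1.07 to 1.37, adjusted p of 0.00439 to 0.204 over all 42). Both differed between mesothelial cells of the 3 depots. Rian had 108, 82.6 and 109 CPM in mesentery, 50.3, 43.2 and 61.6 CPM in omentum and 27.4, 20.1 and 28.9 CPM in epididymal mesothelial cells, a span of 1.97 (adjusted p = 4.87e-06) with no overlap between any pair of depots. Meg3 had 248, 86.5 and 112 CPM in mesentery, 25.9, 42.0 and 72.5 CPM in omentum and 41.4, 22.8 and 54.8 CPM in epididymal mesothelial cells, a span of 1.91 (adjusted p = 0.00182). This Meg3 call was lost without mesentery mesothelial replicate 1 (1.29, adjusted p = 0.0715) and without the libraries rich in acinar RNA (1.32, adjusted p = 0.0603). In that test 4 of the 9 genes were called (Dlk1, Meg3, Rian and Mest), against 12.3% of all genes.

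Grb10 encodes an adaptor that restrains signalling from the insulin and IGF receptors, and lies at chr11:11930508-12038683 on the minus strand. In epididymal fat it had 118, 88.8 and 111 CPM in mesothelial cells, against 243, 327 and 296 CPM in fibroblasts, a log2 fold change of -1.44 ± 0.20 (adjusted p = 5.77e-07). In mesentery it had 161, 158 and 203 CPM in mesothelial cells and 262, 416 and 362 CPM in fibroblasts. The groups did not overlap there, and the change of -0.996 ± 0.20 (adjusted p = 1.79e-04) lay just short of the fold threshold, so that it was not called. It was called with DESeq2 size factors (-1.02). In omentum the difference was -0.35 ± 0.20 (adjusted p = 0.1998). The spread between depots, 1.09, passed the interaction test (adjusted p = 0.0225), but 6 of 42 alternatives lost it, among them unscaled library totals (0.75, adjusted p = 0.232) and the omission of epididymal fibroblast replicate 2 (0.99), epididymal mesothelial replicate 2 (0.98), omentum fibroblast replicate 2 (1.11, adjusted p = 0.0768), omentum mesothelial replicate 2 (1.03, adjusted p = 0.0690) or omentum mesothelial replicate 3 (0.94).

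**Figure D2:**
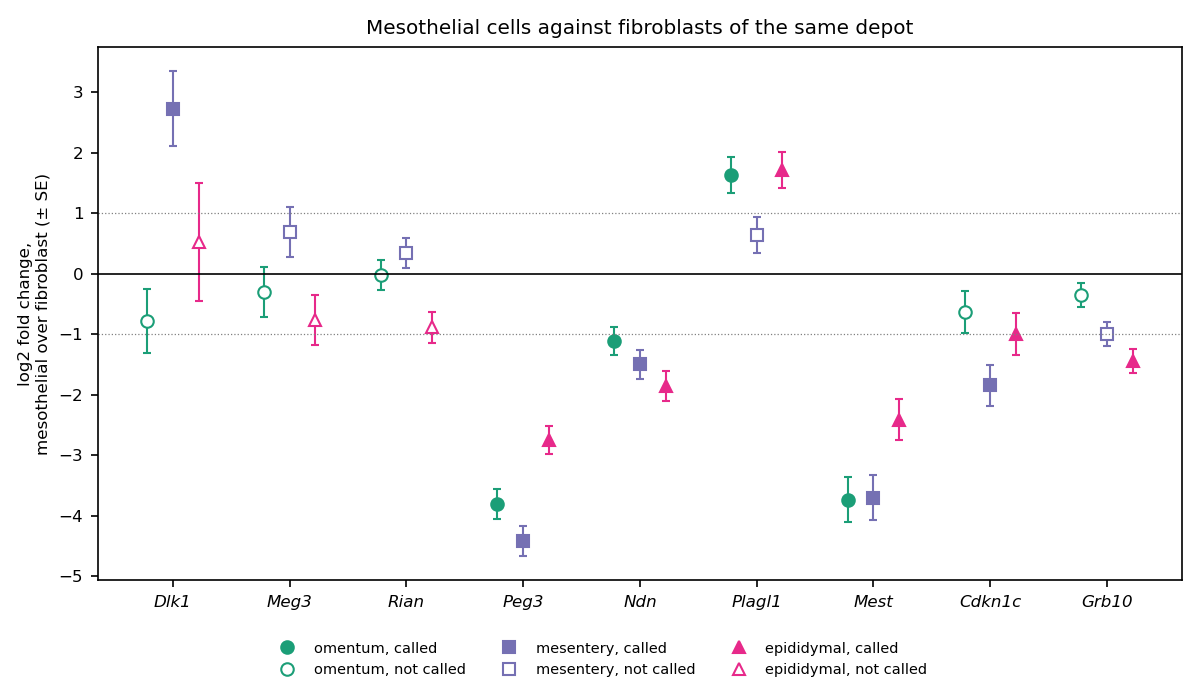
Log2 fold change of mesothelial cells over fibroblasts of the same depot for the 9 genes, in omentum, mesentery and epididymal fat, with standard errors; filled symbols passed the call rule and dotted lines mark a log2 fold change of 1 in either direction. Peg3 and Mest lie between -4.42 and -2.42 in the 3 depots, and Plagl1 lies above 0 in all 3.

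Markers of white blood cells also differed along this comparison. The 5 leukocyte markers, all detected, summed to 576 to 675 CPM in mesothelial cells and 304 to 476 CPM in fibroblasts of omentum, to 728 to 1765 CPM and 8.70 to 18.4 CPM in mesentery, and to 56.4 to 153 CPM and 21.7 to 53.0 CPM in epididymal fat. The 4 B and plasma cell markers summed to 0.268 to 15.4 CPM in mesothelial cells and 137 to 247 CPM in fibroblasts of omentum. The 4 epithelial markers summed to 4.64 to 6.49 CPM in mesothelial cells and 0.450 to 1.53 CPM in fibroblasts of omentum, to 28.9 to 52.5 CPM and 0.442 to 2.14 CPM in mesentery, and to 18.8 to 62.5 CPM and 0.506 to 1.81 CPM in epididymal fat. The 5 endothelial markers summed to 41.1 to 78.7 CPM in mesothelial cells and 19.9 to 32.3 CPM in fibroblasts of omentum, to 89.5 to 103 CPM and 10.9 to 37.1 CPM in mesentery, and to 68.2 to 111 CPM and 23.3 to 55.4 CPM in epididymal fat. The part of these cells in the differences was not tested. Without the 7 libraries rich in acinar RNA, the numbers of the 9 genes called were 3 in omentum, 6 in mesentery, 6 in epididymal fat and 5 in the mean.

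The second comparison ran across the fibroblasts of 9 tissues. All of the 9 genes except Grb10 differed between tissues, where 44.0% of all genes were called. The median span between the highest and lowest tissue was 3.74 on the log2 scale for the 9 genes and 1.82 for all genes tested. In the 81 tests of a single tissue against the mean of the other 8, 24 were called, 14 higher and 10 lower. Spleen held 5 of the 14 and lymph node 5 of the 10. Over all genes the share called in these tests ran from 3.50% in mesentery to 19.5% in bone.

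**Figure D3:**
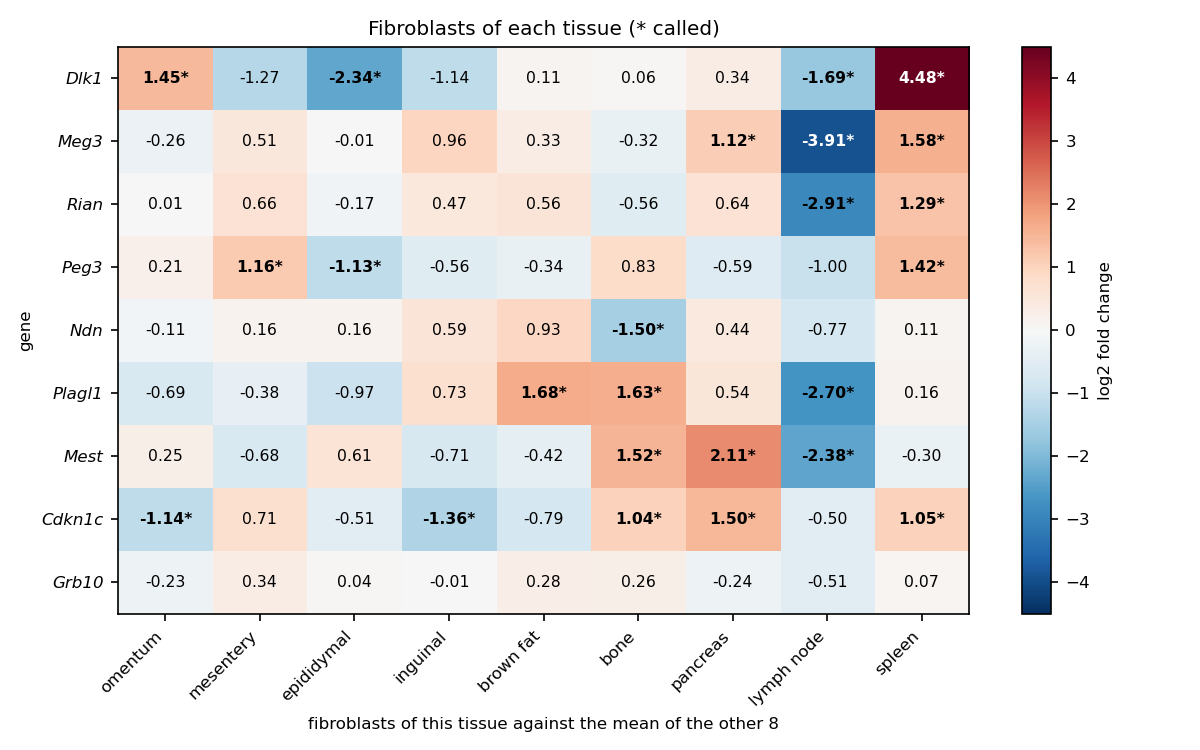
Log2 fold change of fibroblasts of a tissue (columns) against the mean over the remaining 8 for the 9 genes (rows), with red for higher and blue for lower; an asterisk marks a called value. Dlk1 stands at 4.48 in spleen and Meg3 at -3.91 in lymph node, and no Grb10 value is called.

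In spleen fibroblasts 5 of the 9 genes were higher and none lower, where 3.88% of all genes were called, 3.47% as higher and 0.416% as lower. Dlk1 had 8.01 and 22.4 CPM in the spleen libraries, against 0.0311 to 4.36 CPM in fibroblasts of the other 8 tissues, a log2 fold change of 4.48 ± 0.33 (adjusted p = 8.84e-12). Meg3 had 176.95 and 183 CPM in spleen, against 3.29 to 190.2 CPM elsewhere (1.58 ± 0.32, adjusted p = 0.00188), and Rian 130.4 and 102 CPM against 5.51 to 92.7 CPM (1.29 ± 0.20, adjusted p = 3.16e-05). Peg3 had 245 and 223 CPM, against 32.0 to 226 CPM (1.42 ± 0.17, adjusted p = 3.64e-07). Cdkn1c had 23.5 and 26.1 CPM, against 5.35 to 39.1 CPM (1.05 ± 0.27, adjusted p = 0.0134). With a single spleen library the Cdkn1c call was lost (1.13, adjusted p = 0.134 without replicate 1 and 0.98 without replicate 2), as was the Meg3 call (1.61, adjusted p = 0.0569 and 1.56, adjusted p = 0.0784). Erythroid markers summed to 31.4 to 188 CPM in spleen, against 0.210 to 64.1 CPM in the other fibroblasts, and their part was not tested.

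Lymph node fibroblasts stood at the opposite end. There 5 of the 9 genes were lower and none higher, where 16.4% of all genes were called, 9.32% as higher and 7.12% as lower. Meg3 had 3.29, 7.91 and 7.08 CPM in lymph node, against 37.6 to 190.2 CPM in the other tissues (-3.91 ± 0.43, adjusted p = 3.69e-08). Rian had 6.89, 5.51 and 13.9 CPM, against 27.3 to 130.4 CPM (-2.91 ± 0.25, adjusted p = 1.57e-11). For both genes, all lymph node libraries lay below every other library of the series. Plagl1 had 1.17, 1.84 and 4.48 CPM, against 6.13 to 40.9 CPM (-2.70 ± 0.29, adjusted p = 4.02e-09). The groups were also separate for Mest, with 19.2, 13.9 and 7.15 CPM, against 29.5 to 288 CPM (-2.38 ± 0.30, adjusted p = 1.51e-07). Dlk1, at 0.307, 0.254 and 0.462 CPM, was within the range of other tissues, and its call (-1.69 ± 0.62, adjusted p = 0.0394) was lost when any lymph node library, epididymal fibroblast replicate 1, inguinal replicate 1, pancreas replicate 2 or spleen replicate 2 was left out (-1.95 to -1.51, adjusted p of 0.0522 to 0.153), and without the libraries rich in acinar RNA (-1.58, adjusted p = 0.0928). Peg3 at 49.6, 63.6 and 45.2 CPM lay on the fold threshold (-0.998 ± 0.18, adjusted p = 4.07e-05) and was not called. Grb10 and Ndn stayed well expressed, at 198 to 212 CPM and 101 to 142 CPM. In these libraries 4 mural cell markers summed to 576 to 646 CPM, against 8.30 to 138 CPM in the other fibroblasts, and leukocyte markers to 389 to 866 CPM. Their part was not tested.

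Meg3 and Rian followed each other across groups. Over the 12 group means of log2 CPM their Pearson correlation was 0.97, and among 10128 genes with at least 10 CPM in some group each was the gene most like the other. Over the 9 fibroblast groups it was 0.98. The points share libraries and depth, and no test is given. The ratio of Meg3 to Rian counts per library ran from 0.478 to 1.44 in lymph node, 1.36 to 1.79 in spleen and 0.842 to 1.23 in brown fat fibroblasts. Dlk1, on the other parental copy of the same domain, was less like them, at 0.47 to Meg3 and 0.54 to Rian. Its closest gene was Rbl2 at 0.74, the weakest best match of the 9 genes.

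The neighbours of the domain were read from a list of other imprinted genes. Rtl1, which lies between Meg3 and Rian on the opposite strand, was lower in lymph node (-3.31 ± 0.50, adjusted p = 2.62e-06) and higher in spleen (1.41 ± 0.33, adjusted p = 0.00647). Whether counting used strand is not given, so any plus strand reads there cannot be told apart from those of Rtl1. Mirg, a non-coding RNA downstream of Rian, was lower in lymph node (-3.09 ± 0.51, adjusted p = 1.15e-05) and higher in pancreas (2.01 ± 0.31, adjusted p = 1.51e-05). Dio3, whose product inactivates thyroid hormone, had another order, with 2.99 ± 0.93 CPM in pancreas (SD, n = 2), 2.77 ± 0.56 in omentum, 1.74 ± 0.37 in epididymal, 1.23 ± 0.33 in lymph node and 0.0762 ± 0.083 CPM in brown fat fibroblasts (n = 3 each). In mesothelial cells Dio3 was at most 0.110 CPM in any library.

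**Figure D4:**
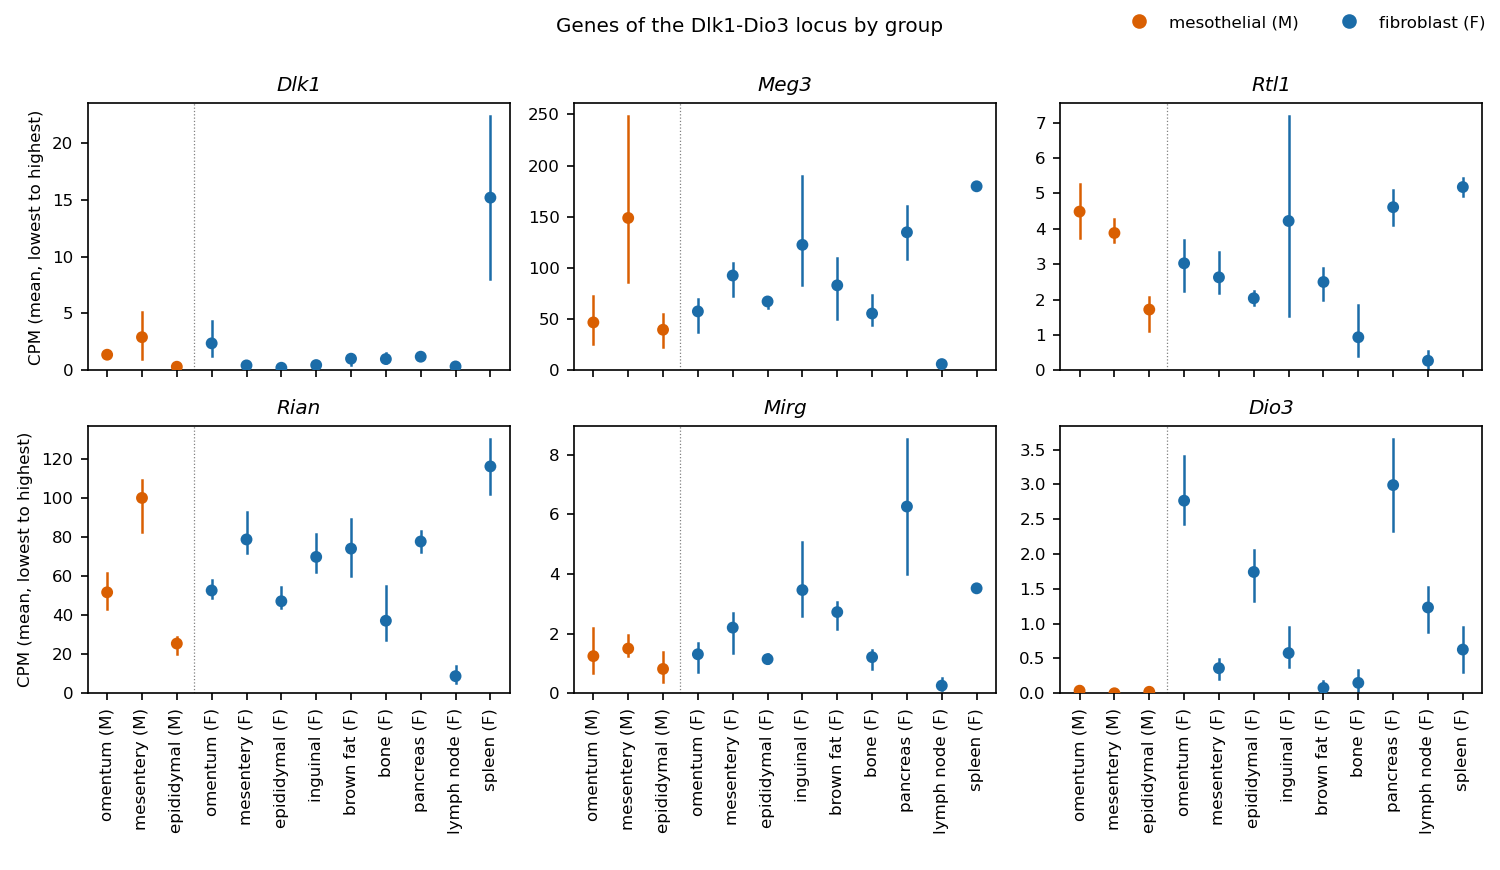
CPM of 6 genes of the Dlk1-Dio3 domain by group, with mesothelial groups (M, orange) left of fibroblast groups (F, blue); points are group means and lines run from the lowest to the highest library. Meg3, Rian, Rtl1 and Mirg share a low in lymph node fibroblasts, Dlk1 peaks at 15.2 CPM in spleen, and Dio3 is near 0 in mesothelial cells.

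Meg3 and Rian also carry microRNAs within their transcribed regions, and so does Mest. Some of the mature sequences are shown as what these hosts carry. Libraries of polyadenylated RNA do not measure mature microRNAs, so the values here are of the hosts. They are from RefSeq, 5′ to 3′, with the seed (bases 2 to 8) in capitals.
mmu-miR-770-3p in Meg3, chr12:109563744-109563765: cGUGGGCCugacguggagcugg
mmu-miR-770-5p in Meg3, chr12:109563710-109563731: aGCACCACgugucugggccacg
mmu-miR-370-3p in Rian, chr12:109618305-109618326: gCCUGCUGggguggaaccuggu
mmu-miR-341-3p in Rian, chr12:109611556-109611576: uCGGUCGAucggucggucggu
mmu-miR-335-5p in Mest, chr6:30741314-30741336: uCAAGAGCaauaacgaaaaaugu
mmu-miR-335-3p in Mest, chr6:30741354-30741375: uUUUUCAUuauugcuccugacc
The table held 3 mature microRNAs in Meg3, 6 in Rian and 2 in Mest, and no seed was shared within a host. The hosts of the first 4 were lowest in lymph node fibroblasts, and the host of the last 2 was lowest in mesentery mesothelial cells.

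Bone fibroblasts had Plagl1, Mest and Cdkn1c higher and Ndn lower, where 19.5% of all genes were called (12.8% higher, 6.65% lower). Plagl1 had 38.7, 35.3 and 31.5 CPM in bone, against 1.17 to 40.9 CPM in the other tissues (1.63 ± 0.19, adjusted p = 2.46e-08). Mest had 167, 179 and 99.2 CPM, against 7.15 to 288 CPM (1.52 ± 0.21, adjusted p = 9.46e-07). Ndn had 95.1, 84.7 and 55.3 CPM, below the 101 to 425 CPM of every other fibroblast library (-1.50 ± 0.20, adjusted p = 2.86e-07). Cdkn1c had 30.9, 27.2 and 15.8 CPM (1.04 ± 0.23, adjusted p = 4.47e-04), close to the fold threshold. It was not called with unscaled totals (0.81), without the filter on low counts (0.99), with bone and the other fibroblasts fitted alone (0.99) or without bone replicate 1 (0.85), bone replicate 2 (0.97), epididymal mesothelial replicate 1 (0.97), mesentery mesothelial replicate 1 (0.97) or omentum fibroblast replicate 2 (0.97). Bone libraries also held 13997 to 20038 CPM over 4 bone cell markers and 328 to 4718 CPM over 4 skeletal muscle markers, against at most 1.97 and 23.0 CPM in other fibroblasts. Their part in these values was not tested.

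Pancreas fibroblasts, with 2 libraries, had 3 of the 9 genes higher where 11.0% of all genes were called (8.65% higher, 2.31% lower). Mest had 142 and 288 CPM in pancreas, against 7.15 to 179 CPM in the other tissues (2.11 ± 0.24, adjusted p = 6.60e-08). Cdkn1c had 39.1 and 26.1 CPM, against 5.35 to 30.9 CPM (1.498 ± 0.25, adjusted p = 6.06e-05). Meg3 had 161 and 109 CPM (1.12 ± 0.33, adjusted p = 0.0223), a call lost without replicate 1 (0.81, adjusted p = 0.453) or replicate 2 (1.37, adjusted p = 0.0574). These libraries held 16882 and 60949 CPM of acinar markers and 73.7 and 118 CPM of endocrine markers, with Ins2 at 56.9 and 77.3 CPM, against at most 1724 and 0.737 CPM in other fibroblasts. The part of these cells was not tested, and pancreas has no library below 1000 CPM of acinar markers.

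In the fat depots fewer of the 9 genes were called. Brown fat fibroblasts had Plagl1 higher, with 40.9, 33.2 and 35.1 CPM (1.68 ± 0.19, adjusted p = 6.23e-08, where 6.41% of all genes were called, 3.66% higher and 2.75% lower), and the highest Ndn, with 425, 333 and 292 CPM against 55.3 to 290.1 CPM in the other tissues, which stayed short of the fold threshold (0.93 ± 0.16, adjusted p = 1.20e-04). Inguinal fibroblasts had Cdkn1c lower, at 5.83, 5.41 and 5.52 CPM (-1.36 ± 0.28, adjusted p = 8.91e-04, where 6.30% of all genes were called, 3.35% higher and 2.96% lower). Mesentery fibroblasts had Peg3 higher, at 168, 226 and 205 CPM (1.16 ± 0.15, adjusted p = 1.23e-06, where 3.50% of all genes were called, 2.19% higher and 1.31% lower). Epididymal fibroblasts had Peg3 lower, at 32.0, 64.2 and 49.98 CPM (-1.13 ± 0.18, adjusted p = 3.65e-05, where 4.43% of all genes were called, 2.5% higher and 1.93% lower), a call lost without replicate 1 (-0.90). They also had Dlk1 lower (-2.34 ± 0.68, adjusted p = 0.0255), which was lost with any epididymal fibroblast library left out (-2.63 to -2.19, adjusted p of 0.0751 to 0.161). Omentum fibroblasts had Cdkn1c lower, at 7.45, 6.47 and 5.36 CPM (-1.14 ± 0.28, adjusted p = 0.00299), and Dlk1 higher, at 1.27, 1.49 and 4.36 CPM (1.45 ± 0.39, adjusted p = 0.00767), where 10% of all genes were called (7.65% higher, 2.38% lower). The Dlk1 value rested on omentum replicate 3, without which it was 0.69 (adjusted p = 0.407). In omentum fibroblasts the 4 B and plasma cell markers summed to 137 to 247 CPM, against at most 30.04 CPM in the other fibroblasts, and the leukocyte markers to 304 to 476 CPM, and their part was not tested. Both omentum calls and the epididymal Dlk1 call were also lost without the libraries rich in acinar RNA (Cdkn1c -0.97, Dlk1 0.87 in omentum and -2.23 in epididymal fat). In omentum only fibroblast replicate 2 was then left. That omission leaves no pancreas library to test, and 20 single tissue tests were called in place of 24.

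Visceral against subcutaneous fat fibroblasts separated Plagl1 alone of the 9 genes, where 8.23% of all genes were called (4.29% higher, 3.94% lower). The 9 visceral libraries, from omentum, mesentery and epididymal fat, had 6.13 to 11.9 CPM. The 6 subcutaneous libraries, from inguinal and brown fat, had 14.8 to 40.9 CPM. The ranges did not overlap, and the log2 fold change was -1.68 ± 0.19 (adjusted p = 2.00e-08). Ndn was also lower in visceral fibroblasts but short of the fold threshold (-0.61 ± 0.15, adjusted p = 0.00364), as were Cdkn1c (0.68 ± 0.22, adjusted p = 0.0339) and Peg3 (0.47 ± 0.14, adjusted p = 0.0191) in the other direction.

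Grb10 was the steadiest of the 9 genes. Across fibroblasts of 9 tissues its group means lay between 205 CPM in lymph node and 347 CPM in mesentery, a ratio of 1.69, and the span of 0.76 stayed short of the fold threshold (adjusted p = 0.0236). The ratio of the highest to the lowest fibroblast group mean was 66.8 for Dlk1, which has few reads outside spleen. It was 29.5 for Meg3, 16.0 for Mest, 14.6 for Plagl1, 13.3 for Rian, 5.83 for Cdkn1c, 4.80 for Peg3 and 4.47 for Ndn. Put in order of level over all 12 groups, most neighbouring groups overlapped: of 11 neighbouring pairs, 1 was free of overlap for Dlk1 and for Meg3, 2 for Rian, Plagl1 and Cdkn1c, 3 for Peg3 and Grb10, 4 for Mest and 5 for Ndn.

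Across the 12 groups the genes most like each of the others were named by Pearson correlation of mean log2 CPM. Peg3 was closest to Zim1 at 0.95, its neighbour in the same imprinted domain on chromosome 7, then to Ptgfr at 0.94. Mest was closest to Tnik at 0.94 and to the imprinted gene Asb4 at 0.92, Ndn to Sirpa at 0.98, Plagl1 to Tpst2 at 0.93, Cdkn1c to F2r at 0.91 and Grb10 to Fam198a at 0.97. Among the 9 genes, Peg3 correlated with Grb10 at 0.85, with Cdkn1c at 0.74 and with Mest at 0.73 over the 12 groups. Over the 9 fibroblast groups alone the same values were 0.56, 0.53 and 0.12. These are descriptions over groups that share a fit and libraries.

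Beyond the 9 genes, 39 other imprinted genes were listed, of which 36 were tested. In the mean of the 3 depots, 10 were lower and 4 higher in mesothelial cells than in fibroblasts, where 9.08% of all genes were lower and 12.3% higher. Of the 4 higher, Phlda2 had no read in fibroblasts of these depots and was lost without epididymal mesothelial replicate 1 (4.71, adjusted p = 0.148). Ppp1r9a was lost without epididymal mesothelial replicate 1 (0.98) or 3 (0.99), or mesentery mesothelial replicate 1 (0.94). The median log2 fold change of the list was -0.33 in omentum, -0.45 in mesentery and -0.51 in epididymal fat, beside -0.09, 0.09 and 0.33 over all genes. Zdbf2, a zinc finger gene, was higher by 4.13 ± 0.25 (adjusted p = 6.45e-17), with group means of 4.09 to 11.6 CPM in mesothelial cells and 0.120 to 1.34 CPM in the matched fibroblasts. Rasgrf1, an activator of Ras, was lower, at -5.45 ± 0.37 (adjusted p = 9.23e-16), with 0.0709 to 0.269 CPM in mesothelial cells and 4.57 to 6.44 CPM in fibroblasts. Peg12, near Ndn, changed by -3.75 ± 0.25 (adjusted p = 1.50e-14) and Zim1, near Peg3, by -3.77 ± 0.28 (adjusted p = 3.78e-13). Usp29, which starts beside Peg3 on the opposite strand, was not called in the mean but was lower in omentum (-1.45 ± 0.47, adjusted p = 0.0233) and higher in epididymal fat (1.25 ± 0.43, adjusted p = 0.0255). Both Usp29 calls were lost with single libraries left out, such as omentum fibroblast replicate 2 (-1.15, adjusted p = 0.148) and epididymal mesothelial replicate 3 (0.90, adjusted p = 0.169). Snrpn, in the Ndn domain, was short of the fold threshold in the mean and was lower in mesentery (-1.07 ± 0.20, adjusted p = 1.04e-04) and epididymal fat (-1.22 ± 0.21, adjusted p = 2.14e-05). The mesentery Snrpn call was lost without mesentery fibroblast replicate 1 (-0.95) and without the libraries rich in acinar RNA (-0.81). H19 had no read in epididymal mesothelial cells and was at least 72.7-fold lower there than in fibroblasts, from a floor of 3 counts over the group. That bound covers counting error only.

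**Figure D5:**
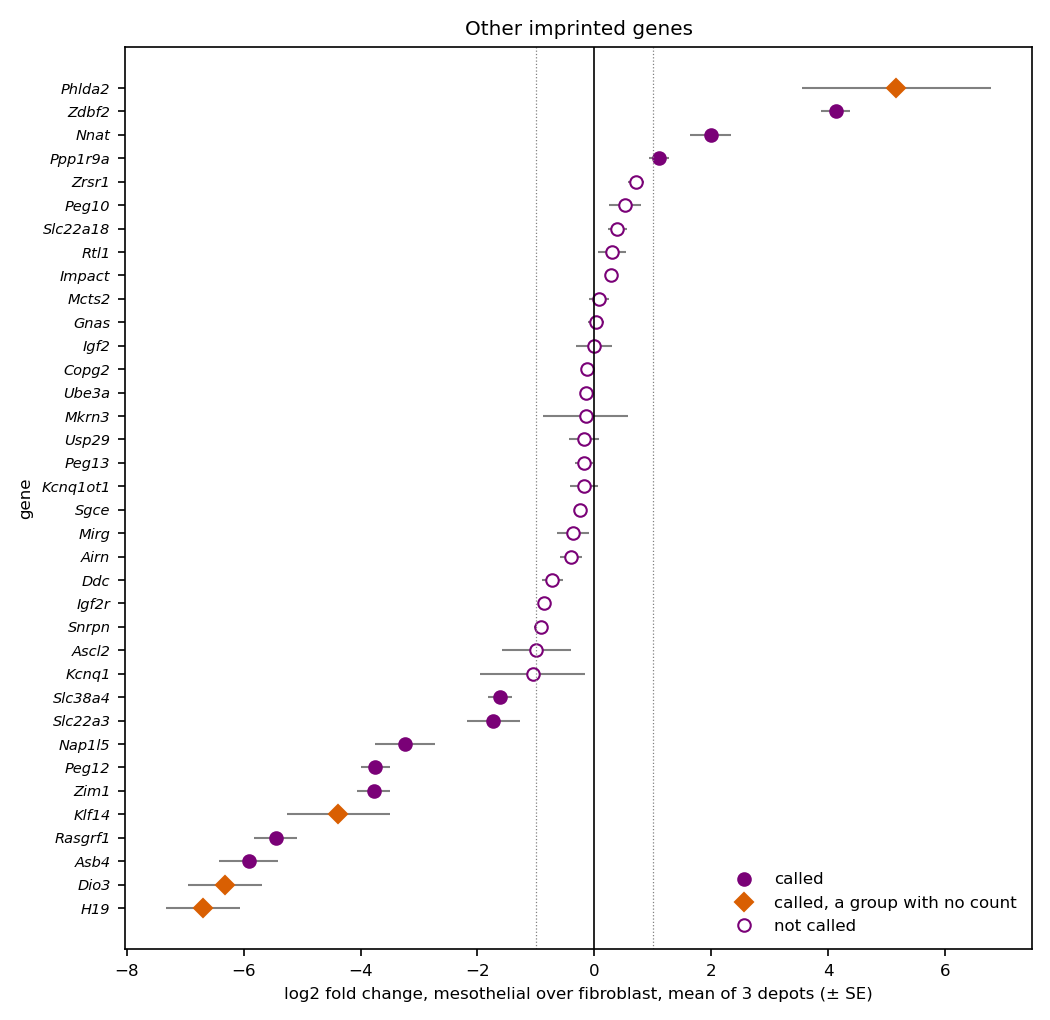
Log2 fold change of mesothelial cells over fibroblasts, mean of 3 depots, with standard errors, for 36 other imprinted genes in order of size; filled circles were called, open circles were not, and diamonds mark called genes with no read in some group, whose fitted value is no bound. In all, 10 genes were called lower and 4 higher, with Rasgrf1 at -5.45 and Zdbf2 at 4.13.

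Between tissues, 28 of the 36 other imprinted genes differed among fibroblasts, against 44.0% of all genes. Slc22a3, an organic cation transporter, was at 70.8 ± 7.9 CPM in lymph node (SD, n = 3), against at most 3.23 CPM in any other fibroblast library (8.39 ± 0.27 log2 in lymph node, SE, adjusted p = 5.41e-26). In lymph node 13 of the 36 were lower and 4 higher, where 7.12% of all genes were lower and 9.32% higher. There Snrpn, H19 and Slc38a4 were lower, at -1.75 ± 0.18, -3.89 ± 0.47 and -2.40 ± 0.30 (adjusted p of 1.72e-09, 2.46e-08 and 1.22e-07). In bone 6 were higher and 4 lower (12.8% and 6.65% of all genes), led by the growth factor Igf2 at 136 ± 33 CPM (5.38 ± 0.26 log2, adjusted p = 3.00e-16) and its neighbour H19 at 67.6 ± 35 CPM (4.36 ± 0.22 log2, adjusted p = 4.09e-18). In pancreas 12 were higher and 1 lower (8.65% and 2.31% of all genes), among them Kcnq1 (4.51 ± 0.63), Dio3 (2.41 ± 0.35) and Klf14 (2.32 ± 0.37). The pancreas libraries held 16882 and 60949 CPM of acinar markers, and the part of these cells was not tested. The Kcnq1 call across tissues was lost without pancreas replicate 2 (span 6.75), the library with 60949 CPM. Without the libraries rich in acinar RNA, both of pancreas among them, Kcnq1 (5.96) and Klf14 (3.17) lost that call. In spleen 4 were higher and none lower (3.47% and 0.416% of all genes), among them Zim1 (1.68 ± 0.29, adjusted p = 1.73e-04).

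Visceral against subcutaneous fat fibroblasts gave 5 of the 36 higher and 6 lower, where 4.29% of all genes were higher and 3.94% lower. Some of these calls were lost in alternatives. Igf2 was lost without inguinal replicate 3 (-0.69), Mirg with unscaled library totals (-0.91) and Zim1 without brown fat replicate 2 (0.93). Ascl2 (2.86) and Slc22a3 (1.86) were lost without the libraries rich in acinar RNA, and Ascl2 also with several single libraries left out. Rasgrf1 was higher by 4.54 ± 0.39 (adjusted p = 8.53e-12), with group means of 4.57 to 6.44 CPM in visceral and 0.163 to 0.329 CPM in subcutaneous depots. H19 was lower, at -2.94 ± 0.26 (adjusted p = 9.61e-11), with 0.545 to 4.52 CPM in visceral and 12.5 to 13.5 CPM in subcutaneous depots. Between mesothelial cells of the 3 depots 6 of the 36 differed, against 12.3% of all genes, led by the amino acid transporter Slc38a4 with 37.3 ± 8.0 CPM in the omentum, 6.19 ± 3.2 CPM in the mesentery and 1.17 ± 0.47 CPM in epididymal fat (SD, n = 3 each, span 4.96, adjusted p = 1.02e-10). Of the 6, Rtl1 was lost with any omentum or epididymal mesothelial library left out (spans of 1.14 to 1.53, adjusted p of 0.0562 to 0.148). Usp29 was lost without epididymal mesothelial replicate 3 (1.56, adjusted p = 0.0846).

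Of 10 listed relatives of the 9 genes, 8 were tested. In the mean of 3 depots 2 were lower and 1 higher in mesothelial cells, where 9.08% of all genes were lower and 12.3% higher. Plag1, a zinc finger factor of the same family as Plagl1, was lower, at -2.90 ± 0.28 (adjusted p = 1.79e-10), the opposite sign to Plagl1. Maged2, of the MAGE family like Ndn, was lower, at -1.54 ± 0.10 (adjusted p = 3.24e-14), and Grb14, a relative of Grb10, was higher by 1.47 ± 0.32 (adjusted p = 3.19e-04). That mean joins depots of opposite sign: Grb14 was higher in mesentery (3.49 ± 0.60, adjusted p = 2.19e-05) and epididymal fat (2.64 ± 0.55, adjusted p = 3.49e-04) and lower in omentum (-1.72 ± 0.45, adjusted p = 0.00438). The omentum call was lost without the libraries rich in acinar RNA (-1.12), which leaves omentum fibroblast replicate 2 alone. Cdkn1a, the relative of Cdkn1c that responds to stress, was not called between mesothelial cells and fibroblasts and reached 258 ± 55 CPM in bone fibroblasts (2.29 ± 0.18, adjusted p = 7.13e-12).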

How the data were processed

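The deposited tables hold counts per gene, and per the file headers a count is a read aligned uniquely to the gene model. Salmon and GRCm38 are listed, per the submitters' processing notes. Which step made the counts, the annotation release, and whether strand was used are not given in the sources used here.

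From the counts, library sizes were scaled by TMM and genes with low counts were left out (filterByExpr by group, minimum count 10). All 34 libraries, in 12 groups, were fitted together with edgeR 4.0.16 in R 4.3.3, and contrasts were tested with its quasi-likelihood F-test and Benjamini-Hochberg adjustment over 25705 genes. Calls took an adjusted p under 0.05 together with a log2 fold change of 1 or more in either direction, or such a range of group effects in tests over several groups. Standard errors follow from the fold change and its F value. Replicates were not duplicates of each other: their counts differed by 24.8 to 359 chi-square per degree of freedom over 32 pairs. Correlations used log2 CPM with a prior count of 2. The scripts were tested on simulated data. Alternatives were other scalings, DESeq2 1.42.0, no filter, no minimum fold change, fits of the compared groups alone, a replicate block, and libraries left out.

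The members and lists were chosen with earlier results of these data known. All 9 genes are named throughout. From each other list and comparison, up to 4 called genes with the smallest adjusted p could be named, and neighbours of the 9 genes whatever their call. Some listed genes whose calls were lost in alternatives are named besides. Gene positions are from GENCODE M21, promoters and microRNAs from RefSeq.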

Additional observations from a re-analysis of the deposited data

Results flagged for a closer look

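The difference between mesothelial cells and fibroblasts itself differed between omentum, mesentery and epididymal fat for some genes. By edgeR's quasi-likelihood test of that interaction these were 4 of the 9 genes, 6 of 36 other imprinted genes and 2 of 8 relatives. Over all genes tested, 10.9% were called. The median span was 1.23 for the 9 genes, 0.99 for other imprinted genes, 1.02 for relatives and 1.21 for all genes. Each value is the span of the 3 log2 fold changes. Among the 9 genes it was 1.67 for Peg3 (adjusted p = 0.00142), 3.51 for Dlk1 (adjusted p = 0.0123), 1.09 for Grb10 (adjusted p = 0.0225) and 1.23 for Rian (adjusted p = 0.0459). Peg3 alone of these kept its call in all 42 alternatives. Among other imprinted genes it was 4.12 for Slc38a4 (adjusted p = 2.28e-06), 4.96 for Zdbf2 (adjusted p = 3.10e-06), 1.31 for Impact (adjusted p = 0.00174) and 2.69 for Usp29 (adjusted p = 0.0126). The Usp29 call was lost without epididymal mesothelial replicate 3 (2.34, adjusted p = 0.0542) and without omentum fibroblast replicate 2 (2.29, adjusted p = 0.0544). The other 2 were Nnat at 3.25 (adjusted p = 0.0133), named outside the rule for named genes to complete the count, and Kcnq1ot1, beside Cdkn1c, at 2.02 (adjusted p = 0.0498). Nnat was lost without the libraries rich in acinar RNA (3.21, adjusted p = 0.139), and Kcnq1ot1 with unscaled library totals (2.41, adjusted p = 0.0666) and with many single libraries left out. Among relatives it was 5.20 for Grb14 (adjusted p = 4.53e-06), higher in mesothelial cells of mesentery and epididymal fat and lower in those of omentum, and 1.37 for Maged2 (adjusted p = 1.45e-04).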

How the results depend on the processing

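Of 1887 values recomputed for the 45 single values called among the 9 genes, 1849 kept direction and call, 38 lost the call and 0 reversed. Many of these had little room to change. Dropping the minimum fold change cannot lose a call, and many of the libraries left out lay outside the groups compared. With no minimum fold change, 40 rather than 24 of the single tissue tests and 4 rather than 1 of the visceral against subcutaneous tests were called. That setting also raised the calls over all genes, in bone from 5003 to 7731. The interaction test called 4 of the 9 genes, 2 without the libraries rich in acinar RNA (1000 CPM or more), and 2 to 5 with a single library left out. Whether the replicate numbers pair the samples could not be settled from correlations between the libraries' deviations from their group means. Same-numbered libraries of different groups had correlations of -0.276 to 0.374 (median -0.0025). Differently numbered ones had -0.363 to 0.439 (median -0.0015), and 16 of 34 libraries were closest to their own number. With a replicate block, 25 single tissue tests were called in place of 24, 5 genes in the interaction test in place of 4, and the other counts stood at 8 across 9 tissues, 4 across mesothelial depots, 4, 5, 6 and 5 for omentum, mesentery, epididymal fat and their mean, and 1 for visceral against subcutaneous fat. Unscaled library totals gave a median over all genes of 0.53 in place of 0.33 in the epididymal comparison, -0.22 in place of 0.03 in bone and 0.27 in place of 0.05 in spleen. Pancreas and spleen have 2 libraries each, so leaving out 1 assumes that the other varies like the rest. The same holds for omentum fibroblast replicate 2 where the libraries rich in acinar RNA are left out. Dlk1 rests on few reads outside spleen.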
